A study of Mus musculus with 17 samples.

Results

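The cell cycle and DNA replication genes were read from livers of mice that lack Afp, the gene of alpha-fetoprotein, a plasma protein made by the fetal liver. They were taken by gene symbol: A, B, D and E type cyclins (Ccn), cyclin-dependent kinases (Cdk) and their inhibitors (Cdkn1 and Cdkn2), the Cdc genes other than Cdc42, the Mcm and Orc genes, Bub, Aurk and Plk, Rfc, the replicative DNA polymerases, Prim, E2f, Gmnn, Pcna, Mki67 and Top2a. On the array 82 genes matched, through 110 probes, of 9030 named genes and 20794 probes in all. Values of 80 of the 82 were obtained in embryos as well, and Cdk16 and Aurkb had adult values alone. No probe carried the name Ccnd1, Ccnb1 or Mki67, and these are not analysed here. The series holds 17 cDNA arrays with 2 colours, each with RNA of 1 knockout animal in one dye and pooled wild-type liver RNA in the other. The 6 adult males, 17 weeks old, were set against a pool of 6 wild-type adults labelled male, in 11 arrays: 5 animals had an array in each dye orientation, and adult animal 5 had only one with the mutant in Cy5. The 6 embryos, 3 male and 3 female with an age given as 7.5 E, had 1 array each, all with the mutant in Cy5. Their reference was a separate pool of wild-type liver RNA of the same labelled age. The same pool animals are named on all 6 arrays, but the pool is called male on 2 and female on 4. The labels say neither how the allele was made nor the strain, nor how that embryonic age was counted.

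Cells enter division when D type cyclins with Cdk4 or Cdk6, then cyclin E with Cdk2, release the E2F factors, which drive genes of S phase. Origins are licensed by Orc, Cdc6 and the Mcm2 to Mcm7 ring, geminin (Gmnn) blocks licensing again, and primase, the polymerases, the Rfc clamp loader and the Pcna clamp then copy the DNA. The fetal liver holds dividing hepatoblasts and large numbers of dividing blood precursors, whereas most adult hepatocytes are at rest.

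The promoters of the members were searched for words of cell cycle regulation, to show whether members that share a regulatory word also shared a response. RefSeq promoters of assembly GRCm38.p6, 250 bases before to 50 after the start, matched 70 of the 82 members, with 80 promoters. One of the E2F words TTTCCCGC, TTTGGCGC, TTTGCCGC or TTTCGCGC, on either strand, stood in 14 of these promoters (17.5%), against 744 of the 32851 promoters of all genes, members included (2.26%). The 13 genes with one were Cdc6, Mcm3, Mcm5, Mcm6, Mcm7, Orc3, Cdk2, Cdk1, Cdc25a, E2f2, Pold1, Pold3 and Pole4, and 6 of the 11 matched genes of origin licensing and firing were among them. The CCAAT box, CCAAT on either strand, stood in 55% of member promoters and 37.4% of all, and the cell cycle homology region, TTTGAA, in 21.2% and 17.9%. The promoters of 4 members on which results below turn are printed 5′ to 3′ on the gene's strand, with words of the 3 motifs in capitals. Mcm5 (chr8:75109259-75109558, plus strand) and Cdk2 (chr10:128705002-128705301, minus strand) hold E2F words, whereas Mcm2 (chr6:88898731-88899030, minus strand) and Prim1 (chr10:128014965-128015264, plus strand) hold none.
Mcm5: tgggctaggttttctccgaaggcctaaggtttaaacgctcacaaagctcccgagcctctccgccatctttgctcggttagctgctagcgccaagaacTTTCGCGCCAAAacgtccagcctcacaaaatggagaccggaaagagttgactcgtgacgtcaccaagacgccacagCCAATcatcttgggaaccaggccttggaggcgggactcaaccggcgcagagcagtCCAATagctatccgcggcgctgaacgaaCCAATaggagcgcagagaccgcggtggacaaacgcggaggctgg
Cdk2: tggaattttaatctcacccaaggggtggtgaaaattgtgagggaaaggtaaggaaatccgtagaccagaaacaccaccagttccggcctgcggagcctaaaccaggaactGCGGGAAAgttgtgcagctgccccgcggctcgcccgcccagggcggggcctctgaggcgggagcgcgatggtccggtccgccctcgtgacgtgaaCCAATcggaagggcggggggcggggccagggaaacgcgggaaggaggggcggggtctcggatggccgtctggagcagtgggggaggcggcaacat
Mcm2: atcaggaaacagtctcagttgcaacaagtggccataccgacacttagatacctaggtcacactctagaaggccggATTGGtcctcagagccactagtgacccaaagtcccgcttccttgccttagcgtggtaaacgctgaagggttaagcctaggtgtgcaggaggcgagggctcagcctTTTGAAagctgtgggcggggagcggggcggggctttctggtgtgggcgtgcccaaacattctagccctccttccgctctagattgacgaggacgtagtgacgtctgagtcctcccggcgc
Prim1: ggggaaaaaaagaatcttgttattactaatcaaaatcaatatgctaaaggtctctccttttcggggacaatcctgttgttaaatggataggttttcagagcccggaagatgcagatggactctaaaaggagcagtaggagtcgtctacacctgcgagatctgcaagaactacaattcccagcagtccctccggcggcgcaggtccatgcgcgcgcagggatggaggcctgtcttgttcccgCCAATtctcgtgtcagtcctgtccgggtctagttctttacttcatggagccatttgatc
In Mcm5 the words TTTCGCGC and, on the other strand, TTTGGCGC overlap 153 to 142 bases before the start, and 3 CCAAT boxes follow them. In Cdk2 the word TTTCCCGC lies on the other strand, 140 to 133 bases before the start. Mcm2 has a CCAAT box and a TTTGAA, and Prim1 has a CCAAT box close to the start. The words are matches of letters and not measured sites.

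Every value below is a log2 ratio of mutant over pool, so that 0 means equal signal, and mean ± SD is over animals. Arrays held 20078 to 20697 values. Afp itself was -8.40 ± 0.23 in the embryos (limma, adjusted p = 1.25e-08) and -0.03 ± 0.19 in the adults (adjusted p = 0.944). A ratio gives no level, so the liver label could not be checked against marker levels. Dye and genotype coincided on the fetal arrays and cannot be told apart there. A dye profile, the difference of the Cy5 and Cy3 arrays divided by 2 within each of 5 adults, is therefore given beside fetal values. It assumes that the columns with the mutant in Cy3 were deposited as mutant over pool, which is likely but not stated. No more than 0.0729% of the numbers in such a column ended in 0, whereas 8.44% or more did in each other column. All 140 of their extreme values (over 10 in size) carried a minus sign, and no extreme value elsewhere did. Against this, the deviations of an animal's 2 arrays from the means of their orientations correlated at -0.178 to 0.0253 over 18778 probes.

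In the embryos no member passed the test, and the members stood slightly above the pool as a group. By limma with Benjamini-Hochberg adjustment over all 17242 features, 0 of 80 members passed at 0.05, against 26 features in all (0.151%). At an unadjusted p under 0.05 there were 16 members, or 20%, against 20.8% of all features. Of these, 13 were above 0 (16.2%, all features 10.9%) and 3 below (3.75%, all features 9.88%). The mean was above 0 for 55 members (68.8%), against 51% of all features. The median member was at 0.07 and the median feature at 0.00. The member median was above 0 in every embryo, from 0.03 in embryo 6 to 0.13 in embryo 5, while the median of all features ran from -0.01 to 0.02. Adult dye profile and fetal mean correlated across the 76 members for which both were tested (Spearman 0.39), as a description over arrays that share the dye layout. Embryo by embryo this was highest in embryo 5, at 0.45, and -0.05 in embryo 6. A 95% interval for a member reached 0.21 to either side in the median, before any adjustment. With the adult dye profile subtracted, 25 of 76 members passed (19 higher and 6 lower), but so did 4483 of 15880 features. That fit treats the profile, itself measured in 5 adults, as free of error.

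Among the E2F factors all 4 measured genes were above 0, and 3 of 4 with the dye profile subtracted. E2f1, the activator that opens S phase, stood at 0.44, 0.65, 0.09, 0.54, 0.65 and 0.39 in embryos 1 to 6. All 6 embryos were above the pool, and embryo 3 was close to it. The mean was 0.46 ± 0.21, with a 95% interval of 0.25 to 0.67 and the smallest adjusted p of any member (limma, 0.084). The adult dye profile of E2f1 was 0.57, larger than the fetal value, and with it subtracted the fetal value was -0.11. E2f4, mostly a repressor in resting cells, was above 0 in 6 of 6 embryos at 0.20 ± 0.15, with a dye profile of -0.35. E2f2 was at 0.18 ± 0.32 and E2f6 at 0.05 ± 0.18.

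Replication fork genes were above 0 in 10 of 14 cases, with a median of 0.12, and in 8 of 14 with rows named as deposited. Prim1, the catalytic subunit of primase, which lays the RNA primer, stood at 0.51, 0.31, 0.23, 0.27, 0.43 and 0.12 in embryos 1 to 6. All 6 were above the pool, at a mean of 0.31 ± 0.14 (limma, adjusted p = 0.0932), and its adult dye profile was 0.01. With the dye profile subtracted Prim1 was still at 0.31 (limma, adjusted p = 0.0196). That fit took the profile as free of error, and 4483 of 15880 features passed in it. With rows named as deposited Prim1 was at -0.01. Rfc4, a clamp loader subunit, was at 0.77, 0.45, 0.75, 0.32 and 0.17 in embryos 1 to 5 and at 0 in embryo 6, a mean of 0.41 ± 0.31 (limma, adjusted p = 0.126). Its dye profile was -0.23. Pcna was at 0.22 ± 0.21, above 0 in 5 embryos and at -0.15 in embryo 1. Its dye profile was 0.33. Top2a, which untangles replicated DNA, was at 0.17 ± 0.22 and Prim2 at 0.15 ± 0.18. Of the polymerase delta subunits Pold1 was at -0.13 ± 0.30, Pold3 at -0.21 ± 0.25 and Pold2 close to 0. Pold4 was below 0 in all 6 embryos at -0.18 ± 0.18. The epsilon subunits Pole, Pole3 and Pole4 were between 0.08 and 0.17, where the 2 probes of Pole3 stood at -0.16 and 0.51.

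**Figure D1:**
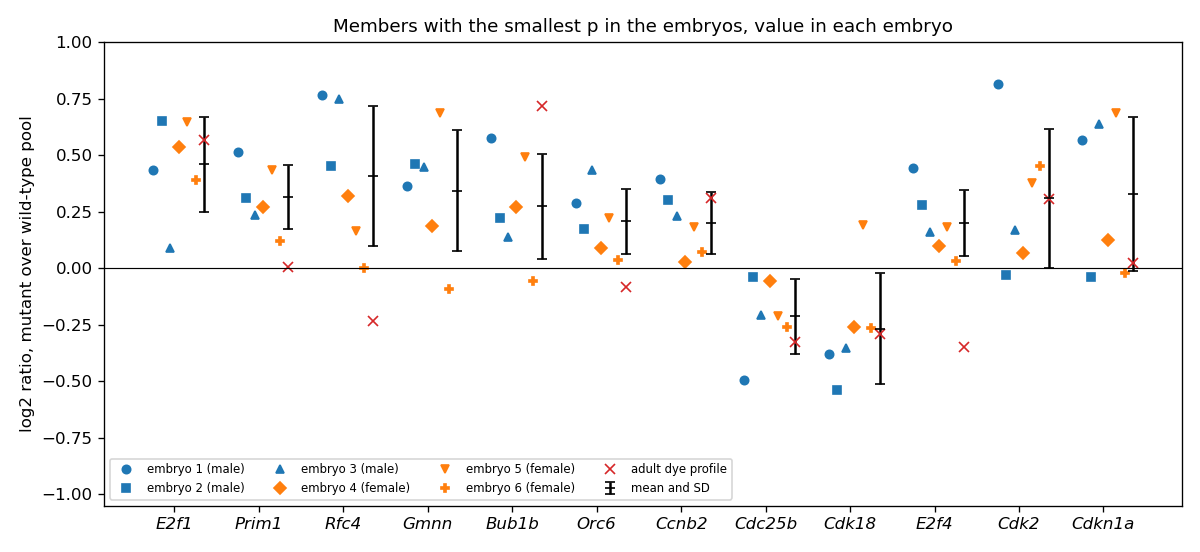
Values of the 12 members with the smallest p in the embryos. The vertical axis is the log2 ratio of mutant over wild-type pool, each symbol is 1 embryo (blue male, orange female), the bar is the mean and SD over 6 embryos, and the red cross is the adult dye profile. Prim1 lies above 0 in every embryo with a dye profile near 0, whereas the cross of E2f1 lies above its mean; no dye profile was computed for Gmnn.

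Of the origin genes 11 of 13 had a mean above 0, most of them close to it (median 0.05). Without embryos 5 and 6 it was 9 of 13, and with rows named as deposited 8 of 13. Gmnn, the licensing inhibitor, was at 0.36, 0.46, 0.45, 0.19, 0.69 and -0.09, a mean of 0.34 ± 0.27 with embryo 6 alone below 0. Orc6 was above 0 in 6 of 6 embryos, at 0.21 ± 0.14. Cdc6, the licensing factor, was at 0.17 ± 0.11, but its 2 probes did not go the same way, at 0.40 and -0.06. The helicase subunits showed no shared shift: Mcm2 was at 0.02 ± 0.19, Mcm4 at 0.00 ± 0.17, Mcm5 at 0.06 ± 0.12, Mcm6 at 0.02 ± 0.25 and Mcm7 at 0.05 ± 0.18. Mcm3 was below 0 in all 6 embryos, at -0.19 ± 0.17.

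All 4 genes of the S and M cyclins and Cdk1 were above 0, but 1 of the 3 that have a dye profile was with that profile subtracted (median -0.02), and 2 of 4 were with rows named as deposited. Ccnb2, which takes cells into mitosis, was above 0 in 6 of 6 embryos at 0.20 ± 0.14, with a dye profile of 0.31. Cdk1, its kinase, was at 0.09 ± 0.07 and Ccna2 at 0.07 ± 0.18. Of the G1 genes Cdk2 was at 0.31 ± 0.31, with embryo 1 at 0.82 and embryo 2 at -0.03. Cdk4 was at 0.07 ± 0.20, Ccnd2 at 0.17 ± 0.29 and Ccne1 at 0.01 ± 0.27. Ccnd3 was below 0 in 6 of 6 embryos, at -0.13 ± 0.10. The inhibitor Cdkn1a, known as p21, was high in embryos 1, 3 and 5 (0.57, 0.64 and 0.69) and near 0 in embryos 2, 4 and 6 (-0.04, 0.12 and -0.02), which averaged 0.33 ± 0.34. Cdkn1b was at 0.18 ± 0.40 and Cdkn2d at 0.03 ± 0.12. All 3 inhibitors were above 0, but 2 of 3 were without embryos 5 and 6, and with rows named as deposited all 3 were below 0 (median -0.03).

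The mitotic kinases and checkpoint genes were split, with 4 of 7 above 0. Bub1b, of the spindle checkpoint, was at 0.27 ± 0.23 with a dye profile of 0.72, and Bub3 was above 0 in 6 of 6 embryos at 0.21 ± 0.17. The 2 probes of Bub3 stood at -0.05 and 0.46. Plk3 was at 0.21 ± 0.24, Plk1 at -0.20 ± 0.30 and Aurka at -0.01 ± 0.09. Of the phosphatases that activate Cdk1, Cdc25a was above 0 in all 6 embryos at 0.13 ± 0.07, with its 2 probes at 0.34 and -0.08, and Cdc25b below 0 in all 6 at -0.21 ± 0.17. Of the Cdks outside the core cycle 3 of 10 were above 0, but 9 of 10 were with the dye profile subtracted (median 0.16). Cdk18 was at -0.27 ± 0.25. Cdk11b read 16.14 in embryo 6 and between -0.96 and 0.42 in the others, so its mean of 2.56 rests on 1 array. Of 20 genes with several fetal probes, 12 had all probes on the same side of 0. Members with the same sign in every embryo numbered 7 above 0 (8.75%, all features 8.27%) and 4 below (5%, all features 7.5%), which is near the background.

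Members with an E2F word had a fetal median of 0.06 (10 of 13 above 0) and those without one also 0.06 (36 of 56 above 0). In the adults the medians were -0.01 and -0.03. For the CCAAT box the medians with and without it were 0.05 and 0.10 in the embryos, and -0.033 and -0.004 in the adults. For TTTGAA they were 0.10 and 0.05 in the embryos, and -0.108 (5 of 16 above 0) and -0.003 (27 of 54) in the adults. Whether these medians differ was not tested.

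Other genes of the cell cycle (checkpoint, cohesin, condensin, kinetochore and regulator genes that the symbol rule does not reach) showed the same low range. Of 67 tested in the embryos none passed by limma after adjustment. An unadjusted p under 0.05 was found for 7 above 0 (all features 10.9%) and 4 below 0 (all features 9.88%). Of the 67 genes, 40 were above 0 (all features 51%), and the median was 0.03. Those with the smallest p were Rbl1, a pocket protein that holds E2F factors, at -0.32, Fzr1 at -0.46, Cks2 at 0.34, Tfdp1, the partner of E2F factors, at 0.29, and Birc5 at 0.19. Of the cell type markers in the same arrays none passed by limma outside the exocrine pancreas list. In the hepatocyte list 6 of 9 genes were above 0 (all features 51%), at a median of 0.18 (embryo medians -0.13 to 0.48). Below 0 were 7 of 9 erythroid genes (median -0.10, embryo medians -0.27 to 0.02) and 7 of 9 granulocyte genes (median -0.23, embryo medians -0.57 to 0.11). All 3 megakaryocyte genes were above 0 (median 0.36; 0.11 to 0.54) and 4 of 5 cholangiocyte genes below 0 (median -0.36; -0.79 to 0.42). All 3 exocrine pancreas genes were below 0 (median -1.30), 2 of them past the test. In the other lists 4 of 4 endothelial genes (median 0.08) and 5 of 6 stellate and mesenchymal genes (median 0.08) were above 0. Below 0 were 5 of 7 macrophage genes (median -0.09) and 2 of 3 lymphocyte genes (median -0.003). Adult dye profile medians were 0.14 for the hepatocyte list, -0.12 erythroid, -0.14 granulocyte, 0.44 megakaryocyte, -0.06 cholangiocyte and -0.22 exocrine pancreas. The megakaryocyte profile, over 4 genes, was thus larger than the fetal median, and dye and genotype coincide on these arrays. Fewer cells of a type and less RNA per cell cannot be told apart in these bulk samples, and the part of these markers in the members' shift was not tested.

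**Figure D2:**
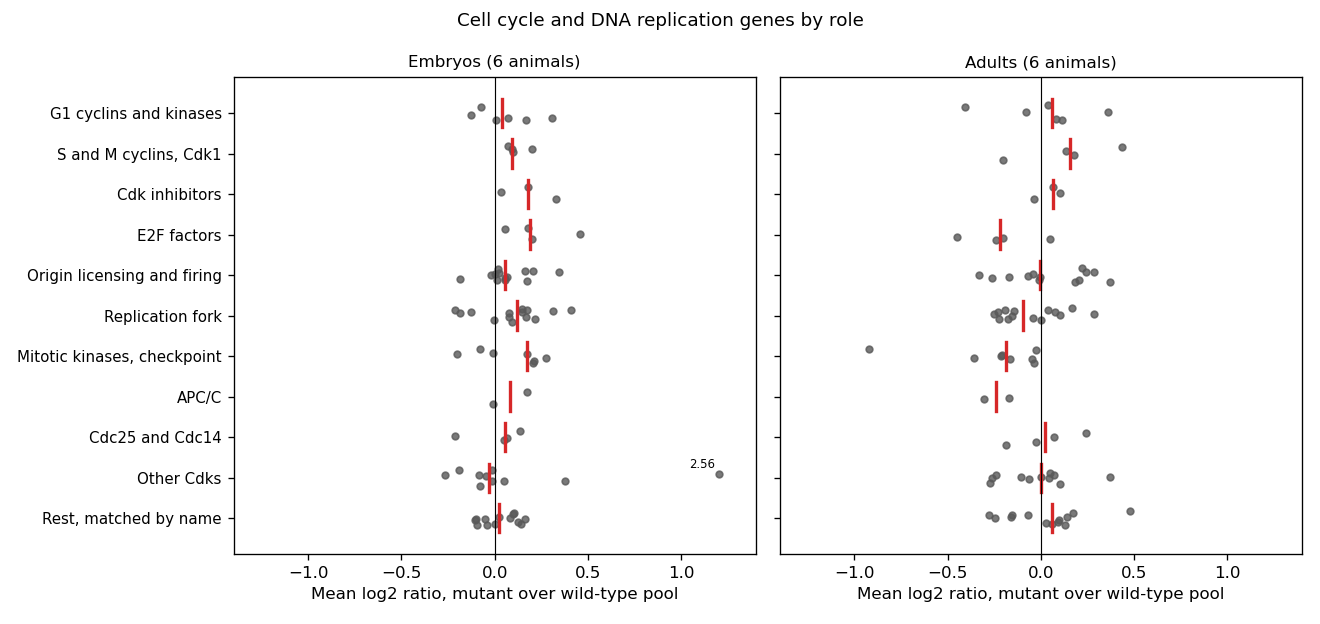
Mean log2 ratio of each member by role, embryos on the left and adults on the right. Each point is 1 gene, the red line is the median of the role, and Cdk11b, at 2.56, is drawn inside the axis with its value written beside it. All E2F factors, S and M cyclin genes and Cdk inhibitors lie above 0 in the embryos, and all mitotic kinases and checkpoint genes lie below 0 in the adults, with exceptions in other settings given in the text.

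In the adults no member passed either, and the median member was close to 0. A 95% interval for a member reached 0.34 to either side in the median, before any adjustment. By limma 0 of 82 members passed, as did 0 of all 17039 features (0%). At an unadjusted p under 0.05 there were 4 members (4.88%, all features 7.71%). Above 0 were 38 members (46.3%, all features 51.9%) and below 0 were 44 (53.7%, all features 48.1%), with a median of -0.03 (all features 0.01). The 4 members were Cdk2, Mcm5, Plk4 and Cdk6. Cdk2, the S phase kinase, was below the pool in 6 of 6 adults and averaged -0.41 ± 0.30 (limma, adjusted p = 0.639). Its mean was -0.15 with the mutant in Cy5 and -0.78 with the mutant in Cy3. If the Cy3 columns are turned in sign, Cdk2 is at 0.24, so its direction rests on how these columns were written. Mcm5 was at -0.06, -0.29, -0.33, -0.39, -0.75 and -0.19 in adults 1 to 6. All 6 were below the pool, animal 5 farthest, and the mean was -0.33 ± 0.23 (limma, adjusted p = 0.639). Mcm5 was below 0 in both orientations, at -0.40 on the Cy5 arrays and -0.17 on the Cy3 arrays, and was at -0.19 with the Cy3 columns turned. Plk4, which builds centrioles, was at -0.92 ± 1.09 and below 0 in 4 of 6 adults, and Cdk6 was at 0.36 ± 0.39. Next by p came Plk3, Cdk16, Mcm2, Cdk5, Plk1 and Cdk1, of which Mcm2, Cdk5 and Cdk1 were above 0.

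Other members kept 1 sign in every adult: Mcm2 above 0 (1.22% of members, all features 3.43%), and Plk3 and Cdc14b below 0 beside Cdk2 and Mcm5 (together 4.88%, all features 2.9%). The mitotic kinases and checkpoint genes Aurka, Aurkb, Bub1b, Bub3, Plk1, Plk2, Plk3 and Plk4 all had means below 0, with a median of -0.19, and each of the 6 adults had a median below 0 for them. Of these 8, 6 were below 0 on the Cy5 arrays alone and 6 with the Cy3 columns turned in sign, and 4 of the 7 tested were on the Cy3 arrays alone (median -0.07). Without adult animal 2, 6 of 8 were below 0. On Cy5 and Cy3 arrays taken apart, Plk1 was at -0.48 and 0.14 and Bub1b at 0.44 and -0.91. Genes that mark proliferation did not pass either: Pcna was at 0.10 ± 0.25, Top2a at -0.25 ± 0.58, Ccna2 at 0.18 ± 0.62, Cdk1 at 0.44 ± 0.52 (5 animals) and Ccnb2 at 0.14 ± 0.28. Of the helicase subunits Mcm2 was at 0.28 ± 0.32, Mcm3 at 0.37 ± 0.99, Mcm4 at 0.21 ± 0.28, Mcm6 at -0.01 ± 0.58 and Mcm7 at 0.24 ± 0.72. Cdk4 was at 0.11 ± 0.14, Cdkn1a at -0.04 ± 0.38, Cdkn1b at 0.10 ± 0.34 and E2f1 at 0.05 ± 0.28. Gmnn was at -0.07 ± 0.99. In animal 4 its arrays read 4.89 (mutant in Cy5) and -3.75 (mutant in Cy3).

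The orientations opposed each other across members, with a Spearman correlation of -0.32 across 82 members between the Cy5 and the Cy3 means of the 5 animals that had both. The dye profile passed limma's test for 5 of 78 members (6.41%, all features 9.14%), all with higher ratios when the mutant was in Cy5: Mcm3ap at 0.95, Rfc1 at 0.75, Bub1b at 0.72, E2f1 at 0.57 and Mcm2 at 0.50. On the Cy5 arrays alone 4 of 82 members passed (Mcm2, Mcm3ap and Rfc1 higher and Plk1 lower), among 1106 of 16896 features. On the Cy3 arrays alone 2 of 79 passed (Cdk2 and Mcm3ap, both lower), among 699 of 16695 features. Mcm3ap thus passed in opposite directions. Adult animal 5, without a Cy3 array, had a member median of -0.23 and an interquartile range of 0.805, and 13 members lay beyond 1 in size. Its values come from 1 array, whereas those of the other adults are means of 2. On single Cy5 arrays the other adults had member medians of -0.15 to -0.02. Interquartile ranges there were 0.34 to 0.86, and 2 to 9 members lay beyond 1. Without adult animal 5 Mcm5 was at -0.25 and Cdk2 at -0.47, and still no member passed. Of 22 genes with several adult probes, 9 had all probes on the same side of 0. Among the markers, none of which passed by limma, 9 of 10 hepatocyte genes were below 0 in the adults (median -0.38, animal medians -0.79 to 0.19). So were 6 of 6 endothelial genes (median -0.35, animal medians -0.57 to -0.04). Above 0 were 4 of 4 megakaryocyte genes (median 0.03) and 6 of 7 macrophage genes (median 0.16), and the other lists were mixed. The part of these markers in the members' values was not tested.

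Of 74 other cell cycle genes tested in the adults none passed by limma. An unadjusted p under 0.05 was found for 1 above and 3 below 0 (all features 7.71% in both directions together). The 5 with the smallest p were Kif23 at -0.28, Ccnh at -0.26, Cenpe at -0.35, Gadd45b at 0.23 and Anapc10 at -0.28. Kif23 and Cenpe are motors of dividing cells.

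**Figure D3:**
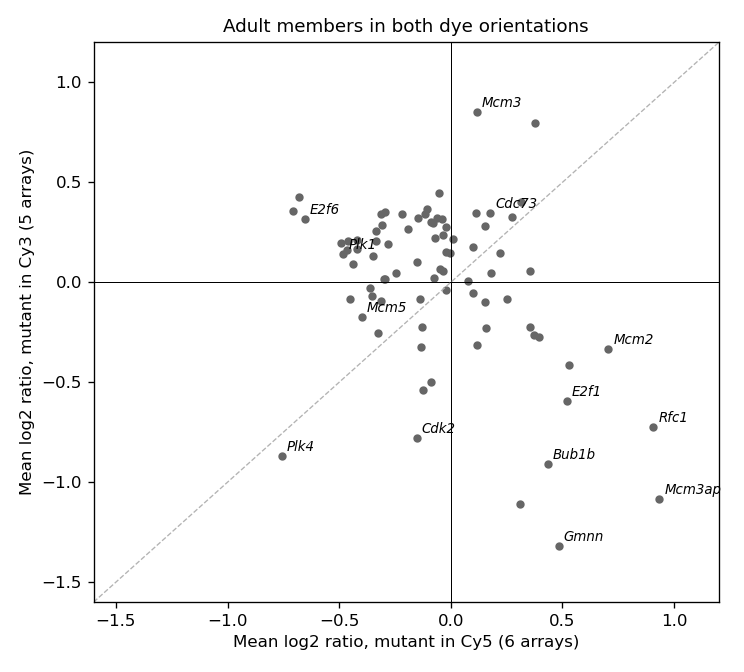
Adult means of the 82 members on 6 arrays that had the mutant in Cy5 (horizontal) and 5 that had it in Cy3 (vertical), both as log2 ratios of mutant over pool; each point is 1 gene and the dashed line marks equal values. Mcm3ap, Rfc1, Mcm2, E2f1 and Bub1b lie at lower right, above the pool in Cy5 and below it in Cy3, whereas Mcm5 and Plk4 lie below 0 in both.

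The ages were compared on arrays of the same dye orientation, 6 adults and 6 embryos with the mutant in Cy5, where a dye effect common to both cancels. No member passed: 0 of 80 by limma, against 23 of 16314 features (0.141%). At an unadjusted p under 0.05 there were 17 members (21.2%, all features 20.2%), 4 higher in the adults (5%, all features 11%) and 13 lower (16.2%, all features 9.24%). Adult values were below fetal ones for 54 members (67.5%, all features 52.3%), at a median difference of -0.10 (all features -0.02). On adult means over both dyes 50 of 80 were lower, and the median difference was -0.055 (all features 0.007). By role and on the Cy5 arrays, 11 of 14 fork genes and 6 of 7 mitotic kinase and checkpoint genes were lower in the adults. So were 8 of 10 Cdks outside the core cycle, 8 of 13 origin genes, 3 of 3 inhibitors and 3 of 4 E2F factors. Of the S and M cyclins and Cdk1 2 of 4 were lower, and 9 of 13 members outside the named roles were higher.

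Mcm2, a subunit of the helicase, differed most by p. It was at 0.49, 0.89, 0.76, 0.55, 0.85 and 0.69 on the adult arrays and at 0.17, -0.16, -0.17, 0.12, 0.26 and -0.12 in the embryos. Every adult value was above every fetal one. The difference of 0.69 had a 95% interval of 0.41 to 0.97 and missed the threshold (limma, adjusted p = 0.0568). It passed without adult animal 1 (0.73, adjusted p = 0.0137) and without embryo 5 (0.74, adjusted p = 0.040). On adult means over both dyes the difference was 0.27 (limma, adjusted p = 0.475), and the Cy3 arrays of the adults put Mcm2 at -0.33.

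Mcm5 and Plk3 were lower in every adult than in any embryo. Mcm5 was between -0.75 and -0.13 on the adult arrays and between -0.12 and 0.18 in the embryos, a difference of -0.46 (95% interval -0.77 to -0.15; limma, adjusted p = 0.113). Plk3, a stress-responsive polo kinase, was between -0.82 and -0.07 in adults and between -0.06 and 0.54 in embryos, a difference of -0.57 (95% interval -0.92 to -0.21; limma, adjusted p = 0.0964). Ranges lay apart for 1 member higher in adults (1.25%, all features 1.14%) and for these 2 lower (2.5%, all features 1.15%). In both, the nearest adult and fetal values almost touched. The other members with small p overlapped between the ages. Pole, the polymerase of the leading strand, was at -0.47 ± 0.25 in adults and 0.08 ± 0.26 in embryos. Mcm3ap was at 0.93 ± 0.51 and 0.16 ± 0.31, and Rfc1, the large subunit of the clamp loader, at 0.91 ± 0.59 and 0.09 ± 0.33. On adult means over both dyes the differences were only -0.02 for Mcm3ap and 0.19 for Rfc1. Without adult animal 1, in which both were near 0 (-0.01 and -0.02), Mcm3ap, Rfc1, Mcm2 and Plk3 passed, 4 of 80 members among 1224 of 16136 features. Plk4 (-0.93), Cdc37l1 (-0.78), Cdk14 (-0.71) and Pole4 (-0.42) were lower in the adults. Over both dyes the adult means of these 4 were -0.92, -0.25, -0.11 and -0.15, against fetal means of 0.17, 0.10, 0.37 and 0.08. Gmnn, Pcna, Ccna2, Cdk1, Cdk4 and Cdkn1b differed by -0.08 to 0.28, Cdk2 and Top2a by -0.46 each, where Cdk2 had a second probe in adults alone and was at -0.18 on the probe read at both ages, Cdkn1a by -0.35, and E2f1 by 0.06. Among Mcm3, Mcm4, Mcm6 and Mcm7 the differences ran from -0.33 to 0.30. Intervals of single members reached 0.46 to either side in the median.

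Of 66 other cell cycle genes none passed by limma between the ages either. An unadjusted p under 0.05 was found for 5 higher (all features 11%) and 6 lower in adults (all features 9.24%). Cdkn1c, an imprinted Cdk inhibitor, was higher in the adults by 1.17 (limma, adjusted p = 0.0711) and Dbf4, which activates the origin-firing kinase, by 0.74. The adult mean of Cdkn1c was 0.58 on the Cy5 arrays but 0.05 over both dyes, and its dye profile was 0.64. Its fetal mean of -0.58 ± 0.61 lacked values of embryos 1 and 4. Cenpe (-0.99), Kif23 (-0.80) and Tfdp1 (-0.59) were lower.

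**Figure D4:**
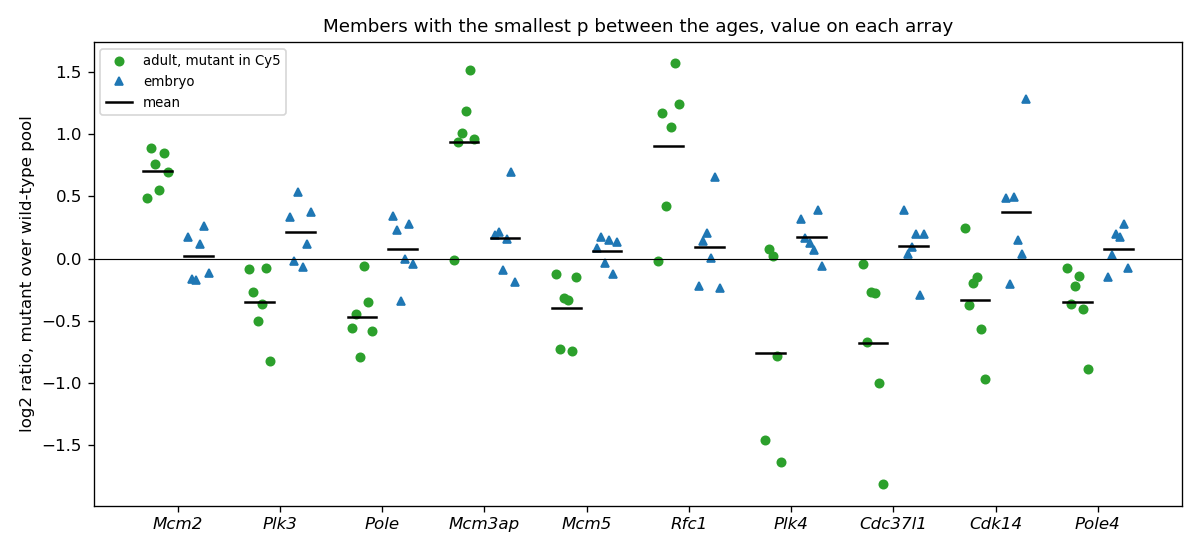
The 10 members with the smallest p between the ages. The vertical axis is the log2 ratio of mutant over pool on each array (green circles, adults with the mutant in Cy5; blue triangles, embryos) and the black line is the mean of the group. Mcm2 lies apart with adults above the embryos, Mcm5 and Plk3 lie apart with adults below, and the other 7 overlap.

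Between female and male embryos 0 of 80 members passed limma's test, against 2 of 17212 features (0.0116%), and 1 had an unadjusted p under 0.05 (1.25%, all features 3.18%). That member was Rfc4, at 0.16 ± 0.16 in 3 females and 0.66 ± 0.18 in 3 males (difference -0.49; limma, adjusted p = 0.998). Ccne1, Ccnd2 and Ccnb2 were lower in every female than in any male as well, by -0.40, -0.41 and -0.21. Cdk18 was higher in every female, by 0.31. These 4 lower members were 5% of those tested (all features 4.85%), and the 1 higher was 1.25% (all features 4.74%). Embryo 3, a male, was hybridised against the pool under a label that calls it female. Intervals reached 0.42 to either side in the median, before any adjustment, with 3 embryos of each sex. Cdk12 (0.33), Orc5 (0.29), Plk2 (0.44), Cdkn2aipnl (-0.29) and Mcm4 (-0.23) came next by p, with overlapping sexes, while Cdk1 was at 0.01 and Cdk2, Mcm5 and Mcm7 at -0.02. Of 67 other cell cycle genes none passed by limma. An unadjusted p under 0.05 was found for 2 higher and 0 lower in females (all features 3.18% in both directions together). Those with the smallest p included Cdkn1c (0.91), Fzr1 (0.53) and Smc2 (-0.56). Cdkn1c had no value in embryos 1 and 4, so its difference rests on the other embryos.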

How the data were processed

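The deposited table holds log2 ratios of 2-colour cDNA arrays, mutant against a wild-type pool; base 2 is an inference from their range. How the authors read the images, corrected background and normalized is not given in the sources used here. Per the labels' protocols RNA was labelled indirectly with Cy3 and Cy5. The platform's annotation named 12771 probes and left 8023 without a name. Fetal rows were moved by 11 rows for probes up to 20000, since as deposited they did not line up with the names, and 794 fetal rows stayed unnamed. Arrays of an animal were averaged per probe, then probes per gene, and the animal was the replicate. limma 3.58.1 (R 4.3.3; lmFit, eBayes) was fitted over all features with a value in 4 of 6 animals (sexes: 2 of each and 4 in all; dye profile: 4 of 5), with Benjamini-Hochberg adjustment over all of them and a threshold of 0.05. On simulated data with the fetal spread, the fetal fit recovered 52% of changes of 0.5 in size and 92% of changes of 1. The adult minus fetal fit recovered 38% and 88%, with the adult arrays also drawn at the fetal spread.

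The members, the lists of roles, other cell cycle genes and cell type markers, and the alternatives were chosen with earlier results of these data known. Named are members past the threshold, the 10 with the smallest p per comparison, up to 3 further of each role, a set of standard cycle genes (cyclins, Cdks, Pcna, Top2a, Mcm2 to Mcm7, Gmnn, E2f1), and the 5 other cell cycle genes with the smallest p. Alternatives were values in every animal, centred arrays, values beyond 10 left out, single probes, 1 animal left out, rows as deposited, and the dye settings. Nothing says whether embryos shared a litter. The number of arrays limits the precision.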

Additional observations from a re-analysis of the deposited data

Results flagged for a closer look

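In 17 of 163 sets of 6 values (genes at each age and the 2 medians of all members), 1 animal lay far from the other 5 (by Dixon's ratio of gap to range; chance does this in about 1 set in 20). Adult animal 5, with a Cy5 array alone, gave 7 genes and the member median among the 12 adult sets. It was set as 1 array against means of 2 arrays, which vary less. Those means also average the 2 dye orientations, which the single array of animal 5 does not. Of its 7 genes, Rfc1 and Mcm3ap are among the 5 members whose dye profile passed the test, and the rest are not. The part of the dye in these flags was not tested. Animal 5 read -3.05 for E2f6, 2.92 for Cdc73, -1.89 for Cdc20, 1.57 for Rfc1, 1.52 for Mcm3ap, -0.46 for Cdk20 and 0.39 for Mcm10, and its median over all members was -0.23. Adult animal 6 read 2.31 for Mcm3 and -1.29 for Bub1b, animal 3 read 1.10 for Ccna1, and animal 4 read 0.69 for Cdkn1a.

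Of the embryos, embryo 6 read 16.14 for Cdk11b, embryo 1 read -1.17 for Cdc5l and -0.14 for Cdk5rap2, embryo 2 read -0.92 for Plk2, and embryo 5 read 0.41 for Cdk9.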

How the results depend on the processing

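In the adults 4 members passed with the mutant in Cy5 alone (1106 of 16896 features), 2 with it in Cy3 alone (699 of 16695) and 4 with the Cy3 arrays turned in sign (1760 of 17039). The adult median was 0.13 in Cy3 alone and -0.13 when turned. In the embryos 25 of 76 members passed with the adult dye profile subtracted (19 higher, 6 lower), among 4483 of 15880 features, with a median of 0.14; with rows as deposited the median was 0.016. Between the ages 0 to 4 members passed with 1 animal left out (4 without adult animal 1, among 1224 of 16136 features) and 7 of 82 with rows as deposited (1579 of 16827 features). The female minus male median ran from -0.014 to 0.029 with 1 embryo left out. With the array number as a replicate block, 0 members passed between the ages (median difference -0.12); same-numbered arrays did not deviate together (correlations -0.0018, -0.0027 and 0.0090). The sign held in every alternative for 13 of 82 members in the adults, 27 of 80 in the embryos, 40 of 80 between the ages and 15 of 80 between the sexes. Causes were not tested.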
